A study of Mus musculus with 12 samples.

Results

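Activation of beta-catenin in the endothelium of adult mouse brain was compared with wild type (WT), with 3 libraries in each group out of the 12 in the series. The mutant mice, labelled beta-catenin GOF (gain of function), had the genotype Ctnnb1lox/lox:Cdh5CreERT2, in which a tamoxifen-inducible Cre recombinase is driven by the endothelial Cdh5 promoter. They received 5 doses of tamoxifen at 75 mg/kg body weight, and brains were taken 2 months later. Cortical endothelial cells were sorted as positive for CD31 and negative for CD41 and CD45, and RNA was amplified with a low-input SMART-Seq kit. The labels describe the WT mice by that word alone: whether they carried Cre or received tamoxifen is not given, nor is the part of Ctnnb1 that the lox sites flank, the sex, or an age beyond adult. The other 6 libraries come from mice that lost Hdac2 or Ezh2 in endothelium (Hdac2 ECKO and Ezh2 ECKO, 3 each, with the same Cre and tamoxifen scheme). All 21638 genes of the table were considered, and 12577 of them averaged 10 counts or more across the 12 libraries and were tested. Nothing in the labels says that libraries of a group came from separate mice, so p-values measure the spread between these libraries only.

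Beta-catenin is the transcriptional effector of canonical Wnt signalling. Without a Wnt ligand, a complex of Axin, Apc and Gsk3 marks it for degradation, and once stabilised it enters the nucleus and activates genes with Tcf and Lef factors. In brain endothelium the pathway guides vessel growth and the formation of the blood-brain barrier, raising tight junction and transporter genes and keeping down Plvap, a gene of leaky vessels.

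Library totals were 28854569 to 33124642 counts in WT and 32405794 to 36109975 in GOF, so that a floor of 3 counts corresponded to 0.079 to 0.107 CPM (counts scaled to a common library size). Between 14194 and 14681 genes had a count in each of these 6 libraries. The endothelial identity of the samples was checked with 15 markers, none of which was at 0 in either group, and whose summed level was 28802 to 38505 CPM in WT and 29761 to 34989 CPM in GOF. Of the sort markers, Pecam1 (CD31) was at 222 to 364 CPM in WT and 204 to 327 CPM in GOF, and Ptprc (CD45) was at 0.0712 to 1.52 CPM in WT and at 0 to 0.0581 CPM in GOF. Itga2b (CD41, a platelet integrin) was at 5.48, 6.52 and 10.1 CPM in WT and at 32.8, 15.8 and 8.60 CPM in GOF. Summed erythrocyte and platelet markers were at 36148 to 61418 CPM in WT, and at 35413, 528 and 29223 CPM in GOF 1, 2 and 3. Summed pericyte and smooth muscle markers were at 71.2 to 132 CPM in WT and at 443, 131 and 140 CPM in GOF 1, 2 and 3. Summed microglia and leukocyte markers were at 8.90 to 17.1 CPM in WT and 2.87 to 6.27 CPM in GOF, where 6 of the 12, among them Cd53, C1qb and Cx3cr1, were at 0. In such bulk samples, fewer cells of a type and less RNA per cell cannot be told apart.

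The targeted gene itself, Ctnnb1, was at 546, 608 and 809 CPM in WT and at 696, 576 and 478 CPM in GOF. The groups overlapped, and the log2 fold change (GOF minus WT) was -0.17 (SE 0.29, adjusted p = 0.962 by edgeR's quasi-likelihood test, Benjamini-Hochberg over all tested genes). A lox allele that alters the protein need not alter this level, so the value is no check of the labels. Ctnnb1 (chromosome 9, 120929216 to 120960507, plus strand, mm10) overlaps Ulk4 on the opposite strand, and reads of overlapping genes cannot be told apart unless the counting used strand, which is not given in the sources used here. Over the 59 other tested genes within 5 Mb of Ctnnb1, the median log2 fold change was 0.13, and 3 genes were higher and none lower at an unadjusted p under 0.05, against 2.83% and 3.24% of all genes. In this window 8 genes lay above WT without overlap and 4 below, against 6.83% and 5.87% of all genes. The 3 genes at that p were Rbms3, an RNA-binding protein gene (1.83, SE 0.61), Trak1, a mitochondrial transport adaptor (0.57, SE 0.24), and Xcr1, a chemokine receptor (3.6, SE 1.57, at 1.17 CPM in GOF), and each was named after its values were seen.

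Across the genome the separation of the groups was small. None of the 12577 tested genes (0%) had an adjusted p under 0.05 by edgeR's quasi-likelihood test, and the smallest adjusted p was 0.0929. At an unadjusted p under 0.05, 356 genes were higher in GOF (2.83%) and 407 were lower (3.24%), and of these 197 and 198 differed by at least 2-fold. The 3 GOF libraries lay above all 3 WT libraries for 859 genes (6.83%) and below them for 738 genes (5.87%). The median log2 fold change was 0.01, with 5% of genes below -0.92 and 5% above 1.01. DESeq2 called 38 genes on the same counts, 13 higher and 25 lower, limma on log2(CPM + 1) called 7, and limma with sample quality weights called 26. Serpine2, Cd24a and Cp were among the calls of all 3 of these tools. The words higher and lower therefore describe measured levels below, and no single gene is called from edgeR in this comparison.

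**Figure D1:**
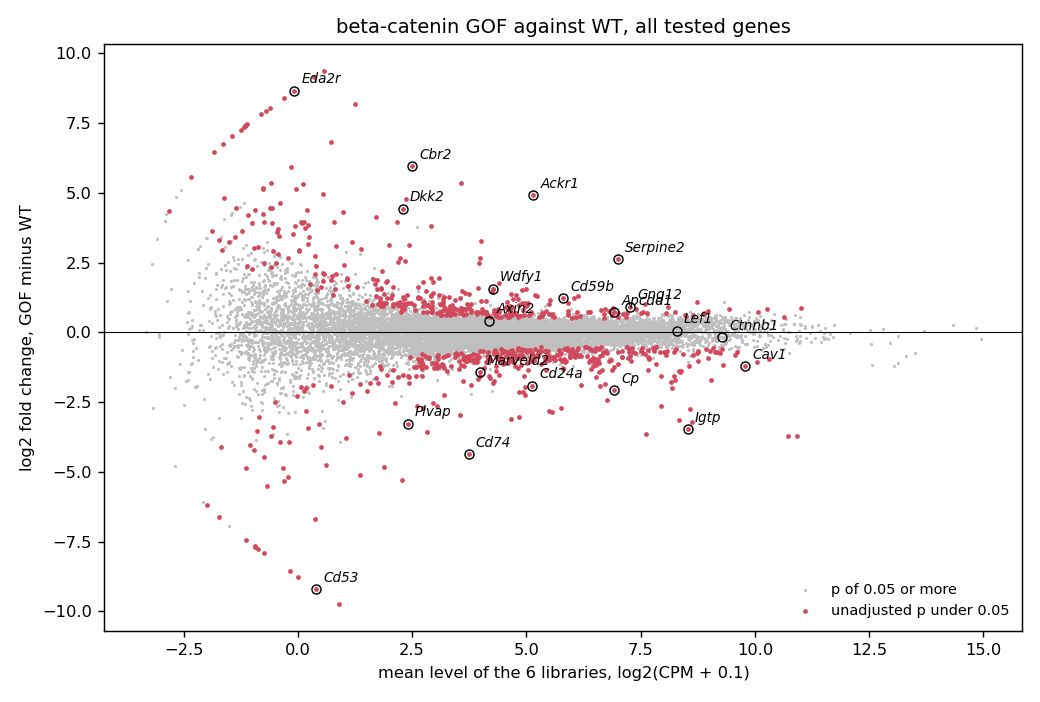
Log2 fold change (GOF minus WT) of each of the 12577 tested genes against its mean level in the 6 libraries, as log2(CPM + 0.1). Red points have an unadjusted p under 0.05, and circles mark genes named in the text. Serpine2 at 2.62 and Cp at -2.08 stand clear of genes of like level, while Ctnnb1 and Lef1 lie near 0 and Axin2 is at 0.42.

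The smallest p among genes higher in GOF belonged to Serpine2, which encodes protease nexin-1, a secreted inhibitor of thrombin and plasminogen activators. Serpine2 was at 56.6, 25 and 25.3 CPM in WT and at 151, 174 and 333 CPM in GOF. All 3 GOF libraries lay above all WT libraries, and also above the 6 libraries of the other mutants, which spanned 35.3 to 96.7 CPM. Mean levels were 35.6 ± 18.2 CPM in WT and 219 ± 99.3 CPM in GOF (SD, n = 3 each), a ratio of 6.16. The log2 fold change was 2.62 (SE 0.40, adjusted p = 0.0929 by edgeR), and 5 of 16 alternative analyses called it. Serpine2 is at chromosome 1, 79794197 to 79861180, on the minus strand.

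Cd24a had the smallest p among genes lower in GOF. It encodes a small surface glycoprotein held by a lipid anchor. Cd24a was at 67.2, 50.5 and 47.8 CPM in WT and at 18.8, 12.5 and 12.8 CPM in GOF. The groups did not overlap, and the log2 fold change was -1.91 (SE 0.31, adjusted p = 0.0929 by edgeR, called in 4 of 16 alternatives). The other mutants, at 15.0 to 29.5 CPM, were also below WT, and the log2 difference of GOF from them was -0.60 (SE 0.26, adjusted p = 0.226 by edgeR).

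Cp encodes ceruloplasmin, a copper-carrying ferroxidase that oxidises iron leaving cells. Cp was at 149, 217 and 218 CPM in WT and at 22.9, 77.9 and 37.4 CPM in GOF. Every GOF library lay below every other library of the series, since the other mutants spanned 162 to 358 CPM. The WT mean was 4.22 times the GOF mean, and the log2 fold change was -2.08 (SE 0.40, adjusted p = 0.35 by edgeR, called in 4 of 16 alternatives). Cp (chromosome 3, 19957054 to 20009145, plus strand) overlaps Hps3 on the opposite strand. Hps3 was at 17.8 to 23.7 CPM in WT and 13.6 to 23.0 CPM in GOF, so that its groups overlapped. Among the 6 other tested genes within 1 Mb of Cp, 1 was lower at an unadjusted p under 0.05, Gyg, the glycogenin gene (-0.67, SE 0.31). This window, Hps3 and Gyg were chosen after the values were seen.

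The promoters of Serpine2 and Cp are shown as examples, because Tcf and Lef factors bind short CTTTG-containing sites. Like Cbr2 and Gimap4, described below, these genes set GOF apart from both WT and the other mutants. Each sequence holds 250 bases before and 50 after a start site of the RefSeq annotation on GRCm38.p6, and capitals mark any match on either strand to CTTTGAA or its variants CTTTGAT and also CTTTGTA and lastly CTTTGTT. The Serpine2 start site lies within the longer span that the table gives for the gene, and the Cp start site is the first base of the table's gene.
Serpine2, chr1:79858616-79858915, minus strand: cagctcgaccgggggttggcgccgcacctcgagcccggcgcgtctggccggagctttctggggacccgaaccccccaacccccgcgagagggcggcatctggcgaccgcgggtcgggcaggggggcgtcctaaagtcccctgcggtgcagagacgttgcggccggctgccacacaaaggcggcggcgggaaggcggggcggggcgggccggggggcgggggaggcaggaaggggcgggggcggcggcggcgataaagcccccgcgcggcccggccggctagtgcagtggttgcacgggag
Cp, chr3:19956804-19957103, plus strand: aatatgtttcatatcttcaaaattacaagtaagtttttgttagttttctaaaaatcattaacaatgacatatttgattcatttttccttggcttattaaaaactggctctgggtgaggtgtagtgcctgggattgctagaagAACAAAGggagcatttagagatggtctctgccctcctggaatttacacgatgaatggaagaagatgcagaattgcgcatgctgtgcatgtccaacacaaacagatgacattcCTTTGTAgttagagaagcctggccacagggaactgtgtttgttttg
The Serpine2 window holds no match to these motifs, and neither do those of Cbr2 and Gimap4, which are not printed. The Cp window holds 2 matches, 1 beginning 108 bases before the start site and 1 beginning 4 bases after it. Such a match was present in 5544 of all 32851 promoters of this length (16.9%) and in 11.7% of the promoters of tested genes. It was present in 1 of the 7 available promoters among the 10 genes of smallest p in the higher direction. The count was 3 of 10 promoters in the lower direction, and 3 of 17 promoters of tested Wnt target genes. These are counts of promoters, not genes: Cp has 2 overlapping promoter entries that share the CTTTGTA match. These counts describe letters, not binding. Wdfy1 and Cd24a had no entry in the promoter table.

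Wdfy1, whose product binds endosomal membranes, lies near Serpine2 on the same strand of chromosome 1 (79702262 to 79776143). Wdfy1 was at 8.78, 11.1 and 9.08 CPM in WT and at 28.1, 25.9 and 31.6 CPM in GOF. The groups did not overlap (log2 fold change 1.57, SE 0.31, adjusted p = 0.35 by edgeR), while the other mutants, at 12.4 to 31.0 CPM, overlapped GOF. Of the 7 other tested genes within 1 Mb of Serpine2, Wdfy1 alone had an unadjusted p under 0.05. Ap1s3, an adaptor complex subunit gene beyond Wdfy1, was at 0.416, 0.0633 and 0.142 CPM in WT and at 0.819, 1.95 and 0.697 CPM in GOF, above all 9 other libraries at a low level. Mrpl44, which overlaps Wdfy1 on the opposite strand, had a log2 fold change of -0.40 (SE 0.38). Within 1 Mb of Cd24a, none of the 13 other tested genes had an unadjusted p under 0.05.

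Cbr2, a carbonyl reductase gene, was almost silent outside GOF. It was at 0.416, 0 and 0.107 CPM in WT, at 0 to 0.416 CPM in the other mutants, and at 21.4, 8.34 and 3.08 CPM in GOF. All 3 GOF libraries lay above all 9 others, and they differed widely among themselves. The log2 fold change from WT was 5.95 (SE 1.30, adjusted p = 0.35 by edgeR). Several neighbours of Cbr2 on chromosome 11 were also high in GOF, and this window was examined after the values were seen. Of its 50 other tested genes, 9 lay above WT without overlap and 2 below, against 6.83% and 5.87% of all tested genes.

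Aspscr1, a gene of glucose transporter trafficking in this window, was at 48.0, 42.2 and 30.5 CPM in WT and at 97.3, 97.5 and 103 CPM in GOF (log2 fold change 1.30, SE 0.37). Arl16, a small GTPase gene, was at 22.1, 18.2 and 17.8 CPM in WT and at 48.0, 42.6 and 30.6 CPM in GOF. Fn3k, which encodes a kinase that removes sugar adducts from proteins, was at 4.13, 2.28 and 3.13 CPM in WT and at 13.5, 7.07 and 6.27 CPM in GOF. For each of these 3 genes, GOF lay above all 9 other libraries. Mafg, a small Maf transcription factor gene, was above WT (7.51 to 10.0 against 15.8 to 19.3 CPM) and within the range of the other mutants. In the other direction Arhgdia (log2 fold change -1.21, SE 0.41) and Wdr45b, an autophagy gene (-0.69, SE 0.30), had an unadjusted p under 0.05 with overlapping groups. At that threshold 3 of the 50 genes were higher and 2 lower, against 2.83% and 3.24% of all tested genes.

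**Figure D2:**
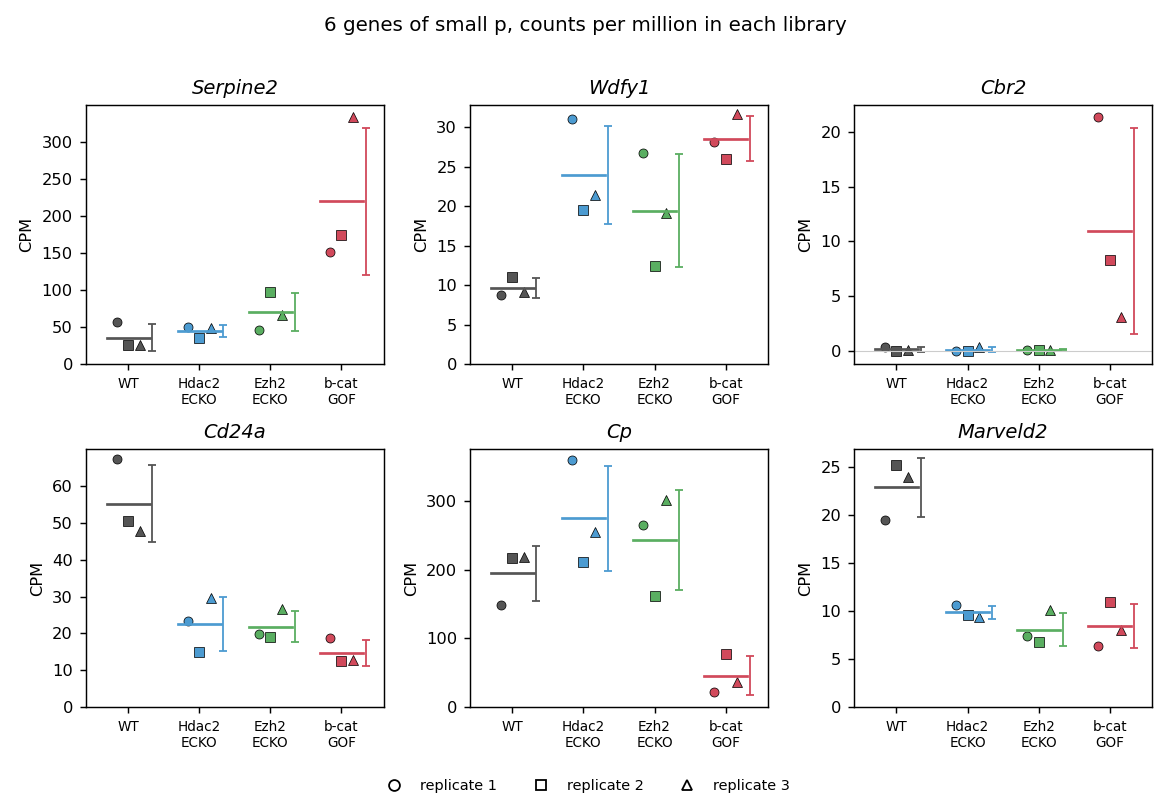
CPM of 6 genes in all 12 libraries by group. Points are libraries with the symbol giving the replicate number, horizontal lines are group means, and error bars are SD (n = 3). Serpine2, Cbr2 and Cp in GOF lie outside all other libraries, whereas Wdfy1, Cd24a and Marveld2 in GOF overlap the other mutants and stand apart from WT.

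The other genes with the 10 smallest p in the higher direction were led by small but tight differences and by genes near the floor. Gng12, a G protein gamma subunit gene, was at 111, 95.3 and 114 CPM in WT and at 171, 191 and 247 CPM in GOF (log2 fold change 0.93, SE 0.22). Cd59b, which encodes an inhibitor of complement lysis and has a close copy in Cd59a, was at 43.2, 28.3 and 29.0 CPM in WT and at 77.5, 67.3 and 90.2 CPM in GOF (1.22, SE 0.29). For both genes the GOF libraries lay above all 9 others. Eda2r, a receptor of the tumour necrosis factor family, had no count in any WT library and was at 1.98, 0.580 and 2.50 CPM in GOF, at least 16.5-fold higher against a floor of 3 counts per library. Kif19a, a kinesin gene, was likewise at 0 in WT and at 1.57, 1.40 and 0.348 CPM in GOF, at least 10.8-fold higher. Doc2g was at 0 in WT and at 0.478, 0.211 and 0.929 CPM in GOF, at least 5.29-fold higher, but was at 0.315 to 1.62 CPM in the other mutants. Bst1, an ectoenzyme gene, was at 1.32, 1.71 and 0.214 CPM in WT and at 7.16, 6.97 and 14.6 CPM in GOF. Of these 10 genes, 6 lay above all 9 other libraries, against 48 of all tested genes (0.382%); their choice by the contrast with WT is part of that count.

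In the lower direction, Marveld2, which encodes tricellulin of the corners where cells meet, was at 19.5, 25.3 and 24.0 CPM in WT and at 6.38, 11.0 and 8.04 CPM in GOF (log2 fold change -1.43, SE 0.30). F2r, the thrombin receptor gene, was at 11.0, 6.46 and 16.5 CPM in WT and at 3.14, 1.16 and 0.929 CPM in GOF (-2.71, SE 0.56). Socs1, an inhibitor of cytokine signalling, was at 15.5, 16.8 and 6.91 CPM in WT and at 2.05, 3.17 and 1.57 CPM in GOF (-2.53, SE 0.54). None of these 3 overlapped between WT and GOF, and in each GOF overlapped the other mutants. St6galnac2, a sialyltransferase gene, was at 175, 145 and 126 CPM in WT and at 66.2, 80.7 and 73.7 CPM in GOF. Like Cp it was lower in GOF than in all 9 other libraries, which held for 2 of the 10 genes and for 48 of all tested genes (0.382%). E130311K13Rik was at 26.4 to 39.9 CPM in WT and 8.73 to 12.1 CPM in GOF, and Cd53, a leukocyte tetraspanin gene, was at 2.08 to 2.85 CPM in WT and at 0 in GOF, at least 27.3-fold lower.

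Canonical Wnt targets were then examined as a list of 28 genes, of which 22 passed the filter on low counts. Of the 22, 18 had a higher mean in GOF. Their median log2 fold change was 0.31, against 0.01 over all tested genes. By edgeR 5 were higher at an unadjusted p under 0.05 and none lower, against a background of 2.83% in the higher direction, and none passed the adjusted threshold. Leaving out any 1 library moved the number higher to between 1 (without GOF 3, when 1 was also lower) and 5. With a trend on gene length removed 4 were higher and none lower, and the median was 0.23. Of the members under the filter, Dkk1 had no count in either WT or GOF. Wif1 had 38 counts in these 6 libraries, none of them in GOF.

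Axin2, the feedback inhibitor most often read as a measure of the pathway, was at 10.1, 16.5 and 19.9 CPM in WT and at 17.8, 21.3 and 23.1 CPM in GOF. GOF 1 lay below WT 3, and the log2 fold change was 0.42 (SE 0.32, unadjusted p = 0.198). Apcdd1, a membrane-bound inhibitor of Wnt signalling, was at 76.0, 84.1 and 116 CPM in WT and at 145, 150 and 157 CPM in GOF. These groups did not overlap (log2 fold change 0.71, SE 0.27, adjusted p = 0.747 by edgeR). Znrf3, a ubiquitin ligase that removes Wnt receptors, was at 11.2, 8.14 and 15.4 CPM in WT and at 17.7, 19.0 and 18.3 CPM in GOF, also without overlap (0.66, SE 0.31).

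Fgfbp1, which releases fibroblast growth factors from matrix, was at 6.94, 5.38 and 8.05 CPM in WT and at 11.7, 13.0 and 30.0 CPM in GOF (log2 fold change 1.43, SE 0.49). Dkk2, a secreted Wnt modulator, was at 0, 0.127 and 1.14 CPM in WT and at 3.27, 0.528 and 23.7 CPM in GOF. Ccnd1, the cyclin D1 gene, was at 13.7, 26.3 and 20.9 CPM in WT and at 24.6, 24.9 and 76.7 CPM in GOF. In all 3 genes GOF 3 was the highest library, and for Dkk2 and Ccnd1 the groups overlapped.

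Other genes of the list did not separate. Lef1, a transcriptional partner of beta-catenin and itself a target, was at 198, 359 and 364 CPM in WT and at 429, 322 and 208 CPM in GOF (log2 fold change 0.06, SE 0.34). Nkd1, a feedback inhibitor, was at 93.2, 67.4 and 41.1 CPM in WT and at 22.9, 44.0 and 165 CPM in GOF, so that GOF held both the lowest and the highest library. Tcf7 had a log2 fold change of -0.20 (SE 0.27) and Sp5, at 0.792 to 2.85 CPM, of -0.48 (SE 0.84). Sox17, an endothelial transcription factor gene, was at 178, 167 and 185 CPM in WT and at 146, 126 and 116 CPM in GOF, lower without overlap (-0.45, SE 0.28). Per kilobase of gene length, the mean level of Lef1 was 34.9 CPM in WT and 36.4 in GOF, and that of Axin2 was 2.81 and 3.77.

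Among 30 tested receptors and effectors of the pathway, 19 had a higher mean in GOF, none had an unadjusted p under 0.05, and the median log2 fold change was 0.09. Fzd4, a Frizzled receptor gene of brain endothelium, was at 49.1, 40.1 and 45.7 CPM in WT and at 48.7, 55.5 and 67.7 CPM in GOF. Per kilobase of gene length, the mean of Fzd4 was 6.69 CPM in WT and 8.53 in GOF, and that of Fzd6 was 32.1 in each. Fzd7 was at 0 to 0.356 CPM in WT and 0.639 to 0.989 CPM in GOF, a low level in both. Against the other mutants, a contrast that uses no WT library, the median log2 difference of the targets was -0.25 and that of the receptors and effectors was -0.25. Axin2 was at 21.1 to 42.7 CPM and Lef1 at 301 to 770 CPM in those mutants.

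No barrier gene was called by edgeR in the main setting, while DESeq2 and limma with sample quality weights called Marveld2. Without the low-count filter edgeR called 1 junction gene, among 157 calls over all genes. Of 24 tested transporter genes of the blood-brain barrier, 16 had a higher mean in GOF, with a median of 0.17, 2 at an unadjusted p under 0.05 (2.83% of all genes were higher at that threshold). Slc7a1, a cationic amino acid transporter gene, was at 119, 221 and 235 CPM in WT and at 425, 351 and 294 CPM in GOF, without overlap (log2 fold change 0.90, SE 0.32). Mfsd2a, a lipid transporter that limits vesicle traffic across the endothelium, was at 93.3, 83.1 and 65.3 CPM in WT and at 80.8, 152 and 152 CPM in GOF (0.67, SE 0.28), and GOF 1 lay within the WT range. The glucose transporter gene Slc2a1 was at 499 to 588 CPM in WT and 574 to 775 CPM in GOF.

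Over 19 tested junction genes the median log2 fold change was 0.11. Cldn5, the main claudin of brain endothelium, overlapped between the groups at 1172 to 1893 CPM in WT and 1028 to 2195 CPM in GOF. Cdh5, whose promoter drives the Cre, was at 102 to 196 CPM in WT and 131 to 182 CPM in GOF. Marveld2, described above, was lower and Cgnl1, a junction-linked scaffold gene, was higher at an unadjusted p under 0.05 (70.2 to 96.9 CPM in WT, 109 to 139 CPM in GOF).

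Genes of caveolae and permeability included larger differences. Cav1, the principal coat protein of caveolae, was at 1687, 1234 and 762 CPM in WT and at 449, 558 and 601 CPM in GOF. No GOF library reached the lowest WT library (log2 fold change -1.20, SE 0.30, adjusted p = 0.417 by edgeR). The other mutants were at 426 to 1042 CPM. Plvap was at 10.1, 16.8 and 1.25 CPM in WT and at 0.955, 1.90 and 0.0581 CPM in GOF, with WT 3 in the range of GOF (-3.27, SE 0.99). Of the 13 tested genes of this list 4 had a higher mean in GOF, and the median was -0.10. Without the low-count filter edgeR called 3 of them, among 157 calls over all genes. DESeq2 and limma with sample quality weights called 1 each, among 38 and 26 calls.

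Basement membrane genes were higher in GOF throughout the list. All 14 tested members had a higher mean, with log2 fold changes from 0.34 to 1.47 and a median of 0.57. By edgeR 7 had an unadjusted p under 0.05 against 2.83% of all genes in that direction, and 8 lay above WT without overlap, against 6.83% of all tested genes. Nid1, which links laminin to collagen, was at 20.2, 14.2 and 16.9 CPM in WT and at 35.7, 26.7 and 35.5 CPM in GOF (log2 fold change 0.93, SE 0.30). Lamb2, a laminin chain gene, was at 25.5, 43.4 and 35.5 CPM in WT and at 44.6, 50.6 and 68.4 CPM in GOF. Col4a1, which overlaps Col4a2 at their shared promoter, was at 83.9, 110 and 117 CPM in WT and at 152, 138 and 123 CPM in GOF. Col18a1 was at 2.29 to 6.68 CPM in WT and at 5.19, 4.75 and 23.3 CPM in GOF, with GOF 3 apart. Leaving out any 1 library left 13 or 14 members higher, with 3 to 5 at an unadjusted p under 0.05. With a trend on gene length removed the number at that threshold was also 3 and the median was 0.38. Across genes, Spearman's rank correlation of log2 fold change and gene length was 0.14, a description in which genes are not independent, and the median was -0.01 among the shortest genes and 0.13 among the longest, when genes are split by length into 5 equal sets. The summed level of the list was 1485 to 1703 CPM in WT, 1700 to 2164 CPM in the other mutants and 2243 to 2655 CPM in GOF. Over the tested members, however, the median log2 difference of GOF from the other mutants was -0.12. Sparc, a matrix glycoprotein gene, had a log2 difference of 1.03 from them, and Hspg2, the perlecan gene, of -0.72, both named after their values were seen. Sparc weighed most in the summed level, with 209833 counts in the WT and GOF libraries, followed by Fn1 with 96063 and Col4a1 with 23065. Pericytes also make such genes, and their markers were higher in GOF 1 in particular; the part of this in the result was not tested.

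**Figure D3:**
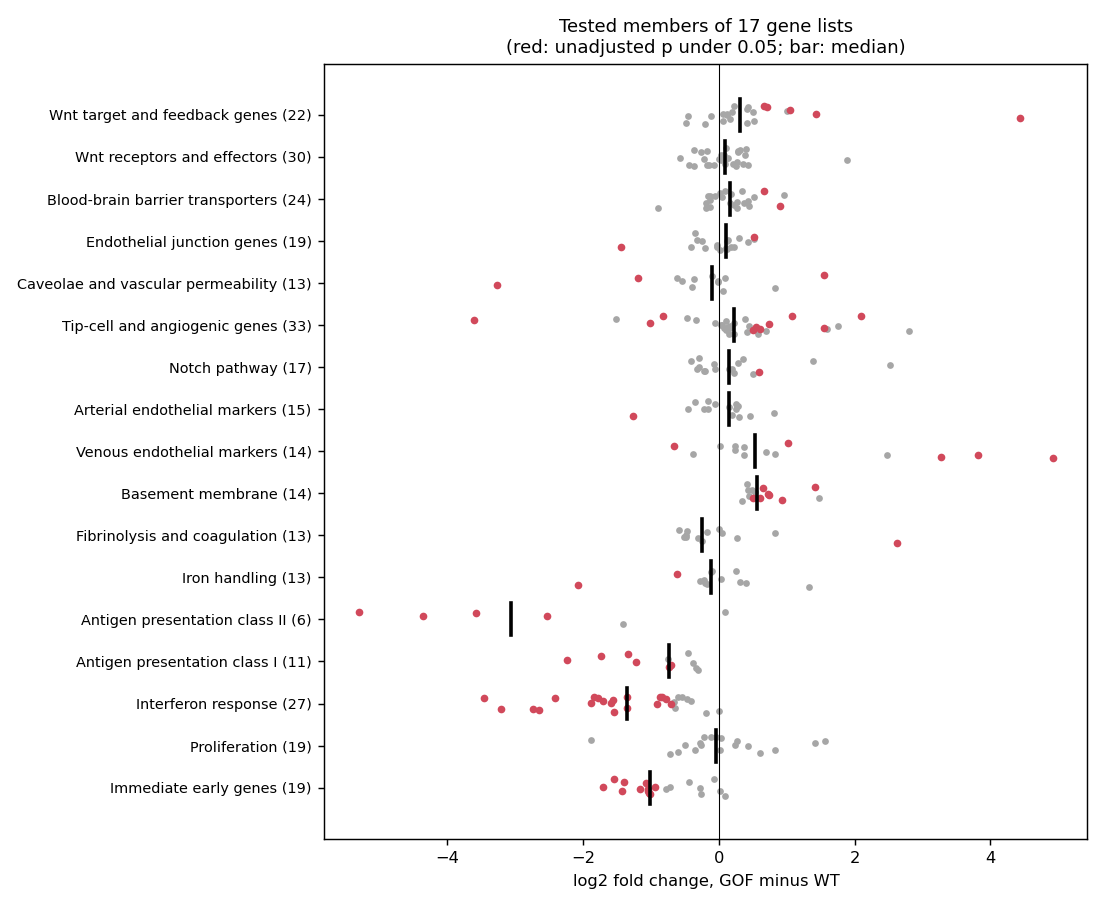
Log2 fold change (GOF minus WT) of every tested member of 17 gene lists, with the number tested in brackets. Red points have an unadjusted p under 0.05 and black bars are medians. The bar of the basement membrane list is at 0.57 with every member right of 0, that of the interferon list is at -1.35, and that of Wnt target genes is at 0.31.

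Angiogenic and tip-cell genes, which mark sprouting vessels, had a higher mean in GOF for 26 of 33 tested and a lower mean for 7, with a median of 0.22. At an unadjusted p under 0.05, 7 were higher and 3 lower, against 2.83% and 3.24% of all genes. Of the higher genes, Lama4, Col4a2 and Hspg2 were already counted in the basement membrane list, so these lists are not independent. Leaving out GOF 2 left 2 higher and leaving out WT 1 left 3. With the gene length trend removed 3 were higher and 3 lower, and the median was 0.14. Unc5b, a netrin receptor of endothelial tips, was at 11.0, 19.9 and 15.0 CPM in WT and at 30.0, 28.7 and 38 CPM in GOF (log2 fold change 1.08, SE 0.29). Esm1, a proteoglycan of tip cells, was lower, at 2.36, 5.45 and 10.6 CPM in WT and at 1.09, 0.422 and 0 CPM in GOF (-3.61, SE 1.27). Both genes separated the groups, in opposite directions. Cd34, a surface sialomucin, was at 1392, 1005 and 511 CPM in WT and at 417, 632 and 604 CPM in GOF.

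Angpt2, which loosens vessel walls, and Apln, a peptide of sprouting cells, rested on GOF 3. Angpt2 was at 15.0, 10.1 and 4.06 CPM in WT and at 8.97, 7.86 and 68.8 CPM in GOF, and without GOF 3 its log2 fold change was -0.21. Apln was at 0.347, 0 and 1.5 CPM in WT and at 0.0682, 1.90 and 10.9 CPM in GOF. Mki67, a gene of dividing cells, was at 0.416 to 0.570 CPM in WT and at 0.239, 0.396 and 2.03 CPM in GOF, and none of the 19 tested proliferation genes had an unadjusted p under 0.05 (median -0.04).

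Venous markers showed the same library apart. Ackr1, a chemokine-binding receptor of venules, was at 1.39, 5.13 and 0.214 CPM in WT and at 15.0, 0.897 and 189 CPM in GOF. Sele, the E-selectin gene, was at 0.475 to 1.78 CPM in WT and at 9.96, 0.0792 and 31.7 CPM in GOF. Lcn2, a secreted iron-siderophore binder, was at 1.53 to 3.99 CPM in WT and at 5.59, 3.54 and 77.5 CPM in GOF. Vwf, the von Willebrand factor gene, was at 71.4 to 78.7 CPM in WT and at 72.2, 69.2 and 261 CPM in GOF. In all 4 genes GOF 3 was the highest and GOF 2 the lowest of the GOF libraries. Of 14 tested venous markers 4 were higher at an unadjusted p under 0.05 (2.83% of all genes), and 1 was lower (3.24% of all genes), Ctsc, a lysosomal protease gene (-0.66, SE 0.27) named after its values were seen. The median was 0.53. Without GOF 3 none was past that threshold in either direction and the median was 0.32. Arterial markers had a median of 0.14 over 15 genes, with Alox12, a lipoxygenase gene, lower (29.7, 24.6 and 16.7 CPM in WT and 8.77, 13.8 and 6.88 CPM in GOF). Mgp, a matrix protein gene of arteries, was at 117, 145 and 378 CPM in WT and at 570, 134 and 175 CPM in GOF, and Fbln5, an elastic fibre gene, was at 8.43 to 10.4 CPM in WT and at 36.1, 6.44 and 8.13 CPM in GOF; both were high in GOF 1.

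Notch pathway genes had a median of 0.15 over 17 tested, and Jag2, a Notch ligand gene, was higher without overlap (26.7, 49.3 and 39.3 CPM in WT, 54.1, 58.3 and 61 CPM in GOF). Over 13 tested genes of fibrinolysis and coagulation, Serpine2 alone had an unadjusted p under 0.05 and the median was -0.24. Of 13 tested iron genes, Cp and Hfe were lower at that threshold. Hfe, a regulator of iron uptake, was at 23.2, 30.6 and 24.3 CPM in WT and at 14.4, 20.7 and 16.2 CPM in GOF.

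Interferon-response genes held more members at an unadjusted p under 0.05 than any other of the 17 lists. Of 27 tested, 26 had a lower mean in GOF, 19 at an unadjusted p under 0.05 against 3.24% of all genes, and the median was -1.35. Irf7, a transcription factor of the interferon response, was at 114, 184 and 47.0 CPM in WT and at 30.0, 40.8 and 23.1 CPM in GOF (log2 fold change -1.88, SE 0.42). Ifit3 was at 310, 870 and 226 CPM in WT and at 128, 162 and 140 CPM in GOF, and its near copy Ifit3b at 125, 300 and 68.9 CPM in WT and at 35.5, 55.6 and 46.9 CPM in GOF. These 3 genes did not overlap between the groups, and WT 2 was the highest library for each. The summed level of the list was 5351, 18407 and 6456 CPM in WT and 4923 to 5869 CPM in GOF, so that the sums of GOF and WT 1 overlapped. Without WT 2 the median was -0.40, and 7 members were lower at an unadjusted p under 0.05. In the other mutants the summed level was 4116 to 5888 CPM, and the median difference of GOF from them was 0.04.

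Antigen presentation genes showed the same libraries apart. All 11 tested class I genes had a lower mean in GOF (median -0.74), 6 at an unadjusted p under 0.05 against 3.24% of all genes; without WT 2 none was, and the median was -0.19, and without GOF 3 none was either. Psmb9, an immunoproteasome subunit gene that overlaps Tap1, was at 114, 605 and 152 CPM in WT and at 142, 122 and 80.2 CPM in GOF. Tap1, a peptide transporter gene, was at 7.5, 74.6 and 7.80 CPM in WT and at 10.1, 7.86 and 9.06 CPM in GOF, so that only WT 2 was above GOF. Of 6 tested class II genes, 4 were lower at that threshold (median -3.06), again against 3.24%, and 2 without WT 2. Cd74, the class II invariant chain gene, was at 11.9, 42.2 and 21.6 CPM in WT and at 0.75, 0 and 2.93 CPM in GOF (log2 fold change -4.36, SE 1.05, adjusted p = 0.404 by edgeR). H2-Aa was at 2.98, 14.6 and 10.2 CPM in WT and at 0, 0.106 and 0.581 CPM in GOF. Cd74 and H2-Aa did not overlap between the groups. Summed class II genes were at 22.1 to 114 CPM in WT, 5.28 to 14.9 CPM in GOF and 6.06 to 8.23 CPM in the other mutants. The median log2 difference of GOF from the other mutants was 0.69 for class II and 0.0052 for class I. Leukocyte markers, given above, and class II genes were both lower in GOF than in WT. Among WT libraries both sums were highest in WT 2, at 17.1 CPM for leukocyte markers and 114 CPM for class II. Among GOF libraries both were highest in GOF 3, at 6.27 and 14.9 CPM. The full order of libraries differed between the sums. Ezh2 ECKO 2 held the highest leukocyte sum of the series, at 30.2 CPM, with a class II sum of 6.06 CPM. The part of leukocytes in these results was not tested.

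Immediate early genes, which respond rapidly to stimuli, tissue handling included, were lower in GOF for 17 of 19 tested, 11 at an unadjusted p under 0.05 against 3.24% of all genes, with a median of -1.02. Zfp36, a gene of mRNA decay, was at 1353, 654 and 412 CPM in WT and at 303, 254 and 182 CPM in GOF (log2 fold change -1.71, SE 0.42). Atf3 was at 831, 380 and 246 CPM in WT and at 182, 156 and 218 CPM in GOF, and Junb at 838, 363 and 134 CPM in WT and at 165, 172 and 121 CPM in GOF. Both are transcription factor genes, and WT 1 was highest for all 3 genes. Without WT 1 the median was -0.46 and 1 member was lower at that threshold. The summed level of the list was 14623, 7686 and 5424 CPM in WT and 4331 to 6086 CPM in GOF, so that the sums of GOF and WT 3 overlapped. In the other mutants the summed level was 3173 to 7448 CPM, and the median log2 difference of GOF from them was -0.39.

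Mural cell markers were higher, as their sums above showed for GOF 1. Their summed level was 147 to 360 CPM in Hdac2 ECKO and 64.6 to 86.4 CPM in Ezh2 ECKO. Of 12 tested pericyte and smooth muscle markers, 11 had a higher mean, 7 at an unadjusted p under 0.05 against 2.83% of all genes, and the median was 1.35; without GOF 1, 4 did and the median was 0.74. Higd1b, a pericyte gene, was at 3.09, 3.89 and 7.26 CPM in WT and at 53.9, 8.5 and 16.8 CPM in GOF (log2 fold change 2.47, SE 0.57). Pdgfrb, the receptor that recruits pericytes, was at 0.0633 to 0.555 CPM in WT and at 5.87, 1.74 and 1.39 CPM in GOF. GOF lay above WT for both genes, and GOF 1 was the highest library for each. The part of these cells in the other results was not tested.

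**Figure D4:**
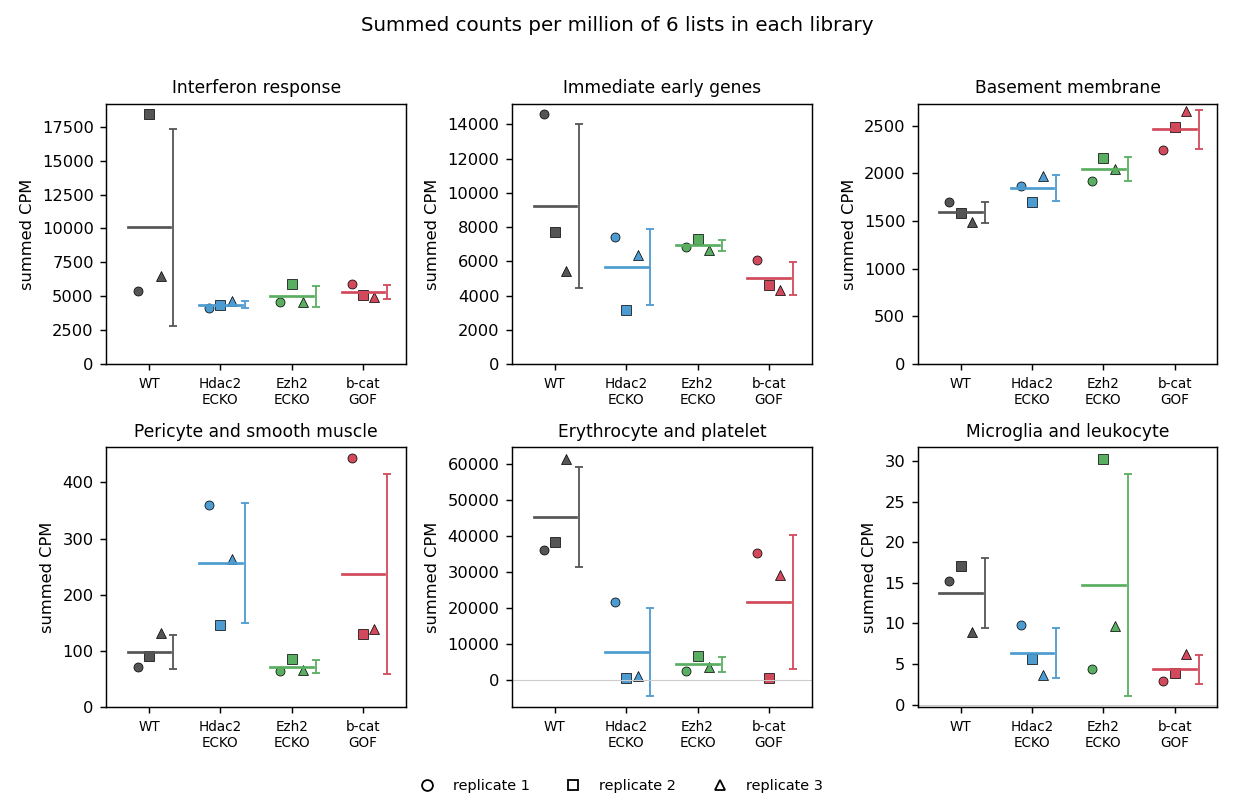
Summed CPM of 6 lists in all 12 libraries by group. Points are libraries, lines are means and error bars are SD (n = 3). Within their groups, WT 2 is apart for the interferon list at 18407 CPM and WT 1 for immediate early genes. GOF 1 is apart from GOF 2 and 3 for pericyte markers at 443 CPM. GOF 2 is apart from GOF 1 and 3 for erythrocyte and platelet markers at 528 CPM. The other mutants span 64.6 to 360 CPM for pericyte markers and 406 to 21723 CPM for erythrocyte and platelet markers. Basement membrane sums of GOF lie above all others, although the median member differed from the other mutants by -0.12 on the log2 scale.

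Large fold differences at low levels completed the comparison with WT. Among genes averaging 50 counts or more and without overlap, the highest positive values after Cbr2 were those of C1s1, a complement protease gene (0 to 0.253 CPM in WT, 1.16 to 2.25 CPM in GOF), Plce1, a phospholipase gene (0.0633 to 0.416 and 1.39 to 2.87 CPM), Bst1 and Pdgfrb. In the lower direction the neutrophil genes S100a8 (8.15, 1.49 and 11.3 CPM in WT, 0.158 to 0.409 CPM in GOF), S100a9 (0.380 to 10.2 and 0.0581 to 0.264 CPM) and Retnlg (0.0633 to 2.21 CPM in WT, 0 in GOF, at least 10.0-fold lower) stood beside H2-Aa and Cd74. Of these groups of values none overlapped, and all 3 neutrophil genes were near the floor in GOF.

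A second comparison set GOF against the mean of the Hdac2 ECKO and Ezh2 ECKO groups, which carry the same Cre and had the same tamoxifen, with no WT library in the contrast. By edgeR's quasi-likelihood test 10 of the 12577 genes were called at an adjusted p under 0.05 (0.0795%), 5 higher and 5 lower in GOF. Serpine2 was higher by 1.98 on the log2 scale (SE 0.32, adjusted p = 0.0231) and Cbr2 by 6.37 (SE 0.99, adjusted p = 0.0208), while Cp had a log2 difference of -2.49 (SE 0.38, adjusted p = 0.0208). Gimap4, which encodes a GTPase of the immunity-associated family, was at 31.8, 30.7 and 38.2 CPM in GOF, at 18.1 to 25.1 CPM in WT and at 8.34 to 13.2 CPM in the other mutants. Its log2 difference was 1.79 (SE 0.22, adjusted p = 0.00414), and GOF lay above all 9 other libraries. These 4 genes also separated GOF from WT without overlap.

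The other 6 called genes had GOF overlapping WT. Uchl1, a ubiquitin hydrolase gene, was at 24.9, 12.6 and 19.6 CPM in GOF, 10.6 to 17.4 CPM in WT and 1.98 to 7.31 CPM in the other mutants (log2 difference 2.49, SE 0.31, adjusted p = 0.00414 by edgeR). Sft2d1, a gene of vesicle transport, was at 339, 287 and 270 CPM in GOF, 204 to 276 CPM in WT and 68.3 to 186 CPM in the other mutants. Npw, a neuropeptide gene, was at 0.106 to 0.205 CPM in GOF and 0 to 0.356 CPM in WT, against 5.87 to 14.6 CPM in the other mutants (-6.08, SE 0.86, adjusted p = 0.0137 by edgeR).

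Hjurp, a chaperone of centromeric histone, was at 3.82, 1.79 and 1.74 CPM in GOF, 1.74 to 10.8 CPM in WT and 17.4 to 24.3 CPM in the other mutants. Etl4, at 14.2 to 21.3 CPM in GOF and 17.9 to 33.4 CPM in WT, was at 36.1 to 68.5 CPM in them. Ifi202b, an interferon-inducible gene with close copies, was at 12.7 to 20.2 CPM in Ezh2 ECKO alone and at or below 0.139 CPM in the 9 others. For Npw, Hjurp, Etl4 and Ifi202b it is thus the other mutants, or 1 of them, that stand away from both GOF and WT.

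The number of calls in this comparison was not stable. It was 0 without GOF 1, 1967 without Ezh2 ECKO 2 and 455 without Hdac2 ECKO 2, and all 10 genes were among the calls of the latter 2. In each library, the deviation of each gene from its mean log2 level over the whole series was taken. Across genes, Spearman's rank correlation of this deviation with gene length was -0.31 to -0.19 in the 6 WT and GOF libraries. It was -0.35 in Ezh2 ECKO 2, but 0.22 to 0.43 in the other 5 mutant libraries. With the length trend removed, 7 of the 10 genes were called.

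**Figure D5:**
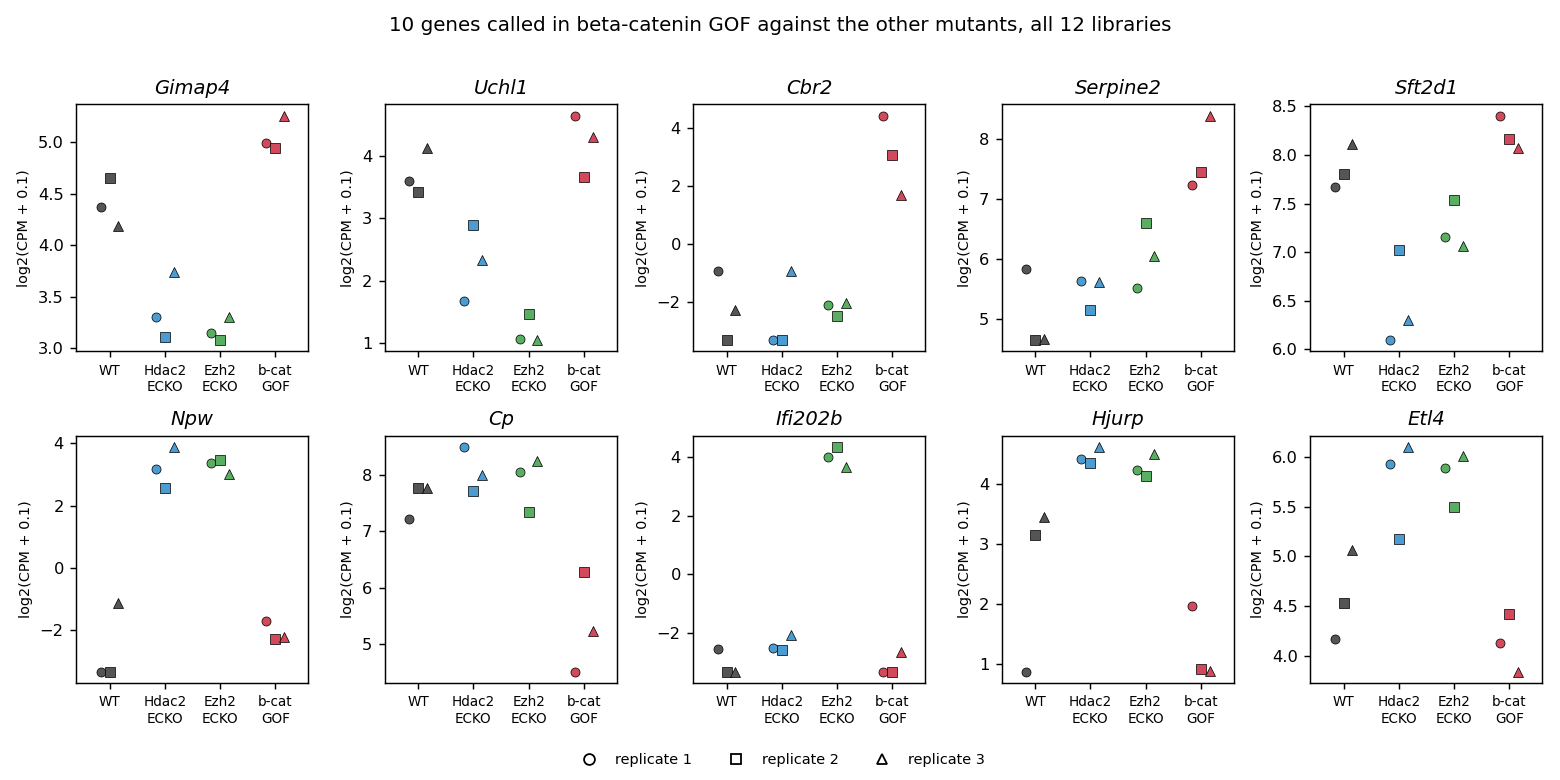
Level, as log2(CPM + 0.1), of the 10 genes called between GOF and the other mutants in each of the 12 libraries. Points are libraries with the symbol giving the replicate number. Gimap4, Cbr2, Serpine2 and Cp place GOF outside all other libraries, and the remaining 6 genes place GOF beside WT.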

How the data were processed

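RNA of 12 sorted endothelial samples was sequenced as paired reads after low-input amplification, per the labels' protocols. The authors deposited 1 table of counts per gene, treated here as raw counts because the library totals differ and 80% to 84% of the values from 10 to 50 are even, as happens if each mate adds 1; intervals from counting alone were therefore not used. FastQC, cutadapt, STAR, featureCounts, DESeq2 and the build mm10 are named in the submitters' processing notes; versions, settings and strand handling are not given in the sources used here. In the table, gene spans matched GENCODE M21 for 21281 of 21638 genes, and 26 symbols had been turned into dates.

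Samples were grouped by their titles. Counts were scaled by TMM and fitted in edgeR 4.0.16 (R 4.3.3) with a term for each of the 4 groups, a filter of 10 counts on a gene's mean, the quasi-likelihood F test and Benjamini-Hochberg adjustment over all 12577 genes at 0.05. CPM are TMM-scaled. The scripts were tested on simulated data. Alternatives were no filter, a filter of 50, median-ratio or library-size scaling, only the groups compared, DESeq2 1.42.0, limma 3.58.1 on log2(CPM + 1) or with sample quality weights, the replicate number as a block, a gene length trend removed, and each library left out. Replicate numbers were not taken as pairs, since same-numbered WT and GOF libraries deviated together with r of -0.253, 0.0859 and -0.105. No 2 libraries of a group agreed within sampling noise.

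Named genes are Ctnnb1, the 10 of smallest p in each direction, the 5 of largest fold in each direction among non-overlapping genes that average 50 counts, 19 fixed genes, up to 3 of smallest p in each of 17 lists, and the genes called against the other mutants. A further set, chiefly neighbours by position, was named after its values were seen. The members, the lists and the tests were chosen with earlier results of these data known. Genes with near-identical copies (Ifit3 and Ifit3b, Cd59a and Cd59b, Ifi202b, the globins) are uncertain where reads could be split.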

Additional observations from a re-analysis of the deposited data

Results flagged for a closer look

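The 10 genes called by edgeR in GOF against the mean of the other mutants were noted because a test of the difference between mutant groups passed its threshold. The log2 differences (GOF minus the other mutants) were 1.79 for Gimap4, 2.49 for Uchl1, 6.37 for Cbr2, 1.98 for Serpine2 and 1.32 for Sft2d1 in the higher direction. In the lower direction they were -6.08 for Npw, -5.72 for Ifi202b, -3.08 for Hjurp, -2.49 for Cp and -1.66 for Etl4. The fitted values of Npw, Ifi202b and Cbr2 depend on libraries at or near the floor of 3 counts and are no bounds.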

How the results depend on the processing

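In GOF against WT, edgeR called 0 genes, and 0 with a mean count of at least 50, either other scaling, only the groups compared, the replicate block or the length trend removed. It called 157 without the low-count filter, DESeq2 called 38, limma on log2(CPM + 1) called 7, and sample quality weights gave 26. Leaving out 1 library gave 0 to 4 (4 without WT 3 and 1 without WT 1). Against the other mutants the 10 calls became 1003 without the filter, 412 by DESeq2, 3295 with sample quality weights and 131 with the replicate block. Leaving out 1 library gave 0 to 1967: 0 without GOF 1, 3 without GOF 2, 4 without GOF 3, 6 without Hdac2 ECKO 3, 3 without Ezh2 ECKO 1, 455 without Hdac2 ECKO 2 and 1967 without Ezh2 ECKO 2. The cause of these shifts was not tested.

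Most named genes kept their direction. The exceptions in GOF against WT were as follows, as log2 fold changes. Nkd1 was at -0.20 by limma on log2(CPM + 1), -0.40 with sample quality weights and -0.011 with the replicate block. Lef1 was at -0.0060 with the replicate block and -0.081 with the length trend removed, and Kdr at -0.040 with the length trend removed. The other changes came with leaving out 1 library. The values then ran from -0.31 (without GOF 1) to 0.016 (without WT 3) for Ctnnb1, from -1.01 (without GOF 3) to 0.64 (without GOF 1) for Nkd1, from -0.21 (without GOF 1) to 0.29 (without GOF 3) for Lef1. They ran from -0.15 (without GOF 2) to 0.37 (without GOF 3) for Cldn5, from -0.11 (without WT 1) to 0.34 (without WT 3) for Cdh5, from -0.21 (without GOF 3) to 2.01 (without WT 1) for Angpt2. They ran from -0.64 (without GOF 3) to 1.28 (without GOF 1) for Mki67, from -2.19 (without WT 1) to 0.24 (without WT 2) for Tap1, from -0.39 (without GOF 1) to 1.21 (without GOF 2) for Fbln5. They ran from -0.46 (without GOF 1) to 1.16 (without WT 3) for Mgp, from -0.10 (without GOF 3) to 1.14 (without GOF 2) for Vwf, from -0.33 (without WT 2) to 5.12 (without WT 3) for Npw. For the last, they ran from -2.67 (without GOF 3) to 2.52 (without WT 1) for Ifi202b. The cause was not tested.

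With 3 libraries a group, a missed threshold does not show equal levels. Genes under about 1 CPM rest on few counts, and folds there are imprecise.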
